A study of Mus musculus with 6 samples.

Results

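The serine synthesis and ATF4 stress genes are 10 genes taken by name from a table of 55401 genes: 6 metabolic enzymes (Phgdh, Psat1, Psph, Shmt2, Mthfd2 and Asns) and 4 stress regulators (Atf4, Atf3, Ddit3 and Trib3). The names match 11 rows of the table, because Ddit3 is listed under a pair of identifiers, and the identifier with more counts (ENSMUSG00000025408) was used. The other Ddit3 row (ENSMUSG00000116429) held a mean of 1 estimated count per library and was under the count filter, so all 10 genes were tested, each through 1 row. RNA was sequenced from mouse bone marrow-derived macrophages (BMDM), the macrophages that M-CSF induces from bone marrow. The 3 mutant libraries carry the genotype label Lamtor5 knockdown, and the study's design text names them HBXIPΔLysM, HBXIP being another name of Lamtor5 and LysM the lysozyme promoter commonly used to drive Cre recombinase in myeloid cells. The other 3 libraries are labelled WT. All 6 were M-CSF induced, and no label gives an age, sex or strain, or tells if replicates are different mice or different cultures of 1 mouse.

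De novo serine synthesis branches from glycolysis. Phgdh oxidises the intermediate 3-phosphoglycerate, Psat1 transfers an amino group to the product, and Psph removes the phosphate to give serine. In mitochondria Shmt2 then moves a carbon unit of serine to folate and Mthfd2 oxidises that folate, which feeds purine synthesis, while Asns makes asparagine from aspartate. ATF4 is a transcription factor whose translation rises when eIF2 is phosphorylated or when mTORC1 is active, and all of these enzymes are known targets. ATF3, the CHOP protein encoded by Ddit3, and the pseudokinase TRIB3 are stress regulators downstream of ATF4. Lamtor5 is a part of Ragulator, which holds mTORC1 at the lysosome. Since ATF4 is controlled largely through translation, its RNA level does not show how much ATF4 protein a cell holds, and no protein was measured.

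All 6 enzymes were lower on average in the knockdown, at 19.6% (Psat1) to 41.6% (Psph) of the WT mean, but Psat1 was the only enzyme that passed the test. Of the 4 regulators Atf3 rose and Atf4, Ddit3 and Trib3 did not pass. The enzymes differed among the 3 WT libraries by 3.22-fold to 5.08-fold, and WT replicate 1 lay close to the knockdown libraries. The median log2 fold change was -1.61 for the 6 enzymes and -0.35 for the 4 regulators, beside 0.02 for all 18164 genes tested, and the difference between the enzymes and the regulators was not tested.

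Libraries held 26.0 to 28.0 M (1e6) read pairs each, and their deposited estimated counts summed to 75.8 to 83.2 M. Lamtor5, the targeted gene, had 25.5, 27.1 and 24.8 FPKM (fragments per kilobase of transcript and per M fragments) in knockdown replicates 1 to 3 and 55.9, 54.5 and 56.2 FPKM in WT. Lyz2, the lysozyme gene at the LysM locus, had 11400, 10600 and 73.6 FPKM in knockdown replicates 1 to 3 and 29400, 24700 and 22500 FPKM in WT. All knockdown libraries were thus below WT, and knockdown replicate 3 stood far apart from the rest. The log2 fold change was -1.76 (SE 1.3) and did not pass (edgeR adjusted p = 0.408). The 8 macrophage markers were each present; by edgeR's test Csf1r (log2 fold change -1.18, adjusted p = 0.0173), Adgre1 (-0.93), Itgam (-0.87), Cd14 (-1.22) and Fcgr1 (-2.11) fell and Cd68 (0.63) rose. In bulk RNA, fewer cells of a type and less RNA per cell cannot be told apart.

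Start-site sequences are shown for Psat1 and Atf3, the members that passed, and for Asns and Trib3, which with Atf3 hold a match to the core of the site bound by ATF4 and C/EBP dimers (the CARE, spelled TGATGNAA, searched on both strands). They are RefSeq windows of 300 bases (GRCm38.p6) that run from 250 bases before to 50 bases after the start, on the strand of the gene, with any match in capitals. The RefSeq starts of Psat1 and Atf3 lie inside the longer gene bounds of the deposited table.
Asns, chr6:7693160-7693459, minus strand: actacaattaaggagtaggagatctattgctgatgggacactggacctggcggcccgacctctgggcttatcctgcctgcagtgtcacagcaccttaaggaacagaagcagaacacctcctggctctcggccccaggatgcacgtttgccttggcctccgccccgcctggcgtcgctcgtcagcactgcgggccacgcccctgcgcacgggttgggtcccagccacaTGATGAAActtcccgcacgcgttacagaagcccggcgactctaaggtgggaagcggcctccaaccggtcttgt
Atf3, chr1:191183284-191183583, minus strand: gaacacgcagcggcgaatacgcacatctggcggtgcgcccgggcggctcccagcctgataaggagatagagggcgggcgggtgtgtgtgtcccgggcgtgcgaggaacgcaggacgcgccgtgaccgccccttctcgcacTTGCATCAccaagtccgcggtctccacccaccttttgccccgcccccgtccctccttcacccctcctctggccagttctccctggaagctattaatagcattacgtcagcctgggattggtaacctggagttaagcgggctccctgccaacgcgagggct
Trib3, chr2:152344011-152344310, minus strand: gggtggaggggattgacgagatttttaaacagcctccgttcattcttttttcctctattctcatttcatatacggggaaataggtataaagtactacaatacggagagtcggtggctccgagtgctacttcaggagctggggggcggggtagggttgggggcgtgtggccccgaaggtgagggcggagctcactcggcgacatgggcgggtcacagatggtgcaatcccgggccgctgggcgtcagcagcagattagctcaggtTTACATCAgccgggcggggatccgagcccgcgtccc
Psat1, chr19:15925010-15925309, minus strand, no match: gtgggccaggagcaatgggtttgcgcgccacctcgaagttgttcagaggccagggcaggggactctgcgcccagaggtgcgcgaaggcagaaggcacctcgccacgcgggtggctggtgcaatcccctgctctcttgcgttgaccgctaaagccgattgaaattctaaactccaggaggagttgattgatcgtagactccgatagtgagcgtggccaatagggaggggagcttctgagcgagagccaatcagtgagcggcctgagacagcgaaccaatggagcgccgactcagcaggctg
The 10 genes had 11 such windows, with a pair for Psat1, and 3 windows held the CARE core. Of all 32851 RefSeq windows given, 3.97% did. Neither the CRE (TGACGTCA), found in 1.79% of all windows, nor the E-box (CACGTG), found in 7.15%, was in any of the 11 windows; none of the 3 motifs contains another, and a missing match says only that these letters are not in this window. The match began 23 bases before the start in Asns, 110 bases before it in Atf3 and 14 bases after it in Trib3. Of the 3 genes with a match Atf3 was higher in the knockdown, while Asns and Trib3 did not pass in either direction.

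The serine synthesis enzymes were measured first. Psat1 (ENSMUSG00000024640, GRCm38 chromosome 19, 15904678 to 15947337, minus strand) had 2.76, 3.30 and 2.37 FPKM in knockdown replicates 1 to 3 and 5.33, 15.4 and 22.2 FPKM in WT replicates 1 to 3. The groups did not overlap, but WT replicate 1 was nearer to the knockdown than to the other two WT libraries. The mean fell from 14.3 ± 8.50 to 2.81 ± 0.468 FPKM (SD, n = 3), with a log2 fold change of -2.29 (SE 0.47, edgeR's quasi-likelihood test, adjusted p = 0.0284). In that comparison 6.46% of the genes tested were lower and 4.87% higher, 11.3% in all. The Psat1 call held without WT replicate 1 (-2.68, adjusted p = 0.0106) and was lost without any one of the other 5 libraries, with adjusted p of 0.0891, 0.0746 and 0.0930 without knockdown replicates 1, 2 and 3 and of 0.0982 and 0.0685 without WT replicates 2 and 3, at log2 fold changes of -1.83 to -2.39.

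Phgdh (ENSMUSG00000053398, chromosome 3, 98313170 to 98339990, minus strand), the first enzyme of the branch, had 16.8, 16.0 and 7.25 FPKM in the knockdown and 17.5, 43.3 and 63.6 FPKM in WT. The highest knockdown library stood at 0.964 of the lowest WT library, so the groups were separated by less than the spread within either of them. Its log2 fold change was -1.58 (SE 0.50, 95% interval -2.75 to -0.40 before adjustment, edgeR adjusted p = 0.0852). Psph (ENSMUSG00000029446, chromosome 5, 129765558 to 129787449, minus strand), the last enzyme, had the lowest mean FPKM of the 10 genes in both groups, with 1.38, 1.45 and 1.09 FPKM in the knockdown and 1.58, 2.76 and 5.09 FPKM in WT (log2 fold change -1.21, SE 0.39, edgeR adjusted p = 0.0923). Psph overlaps Cct6a on the opposite strand, which had 20.0 to 22.4 FPKM in the knockdown and 20.9 to 27.9 FPKM in WT. Whether counting used strand is not given in the sources used here, so reads in the bases that the pair shares cannot be told apart. The order of the 3 serine synthesis genes by WT mean, per length, was Phgdh (41.4 ± 23.1 FPKM), Psat1 (14.3 ± 8.50) and Psph (3.14 ± 1.78), and within each library it was the same.

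**Figure D1:**
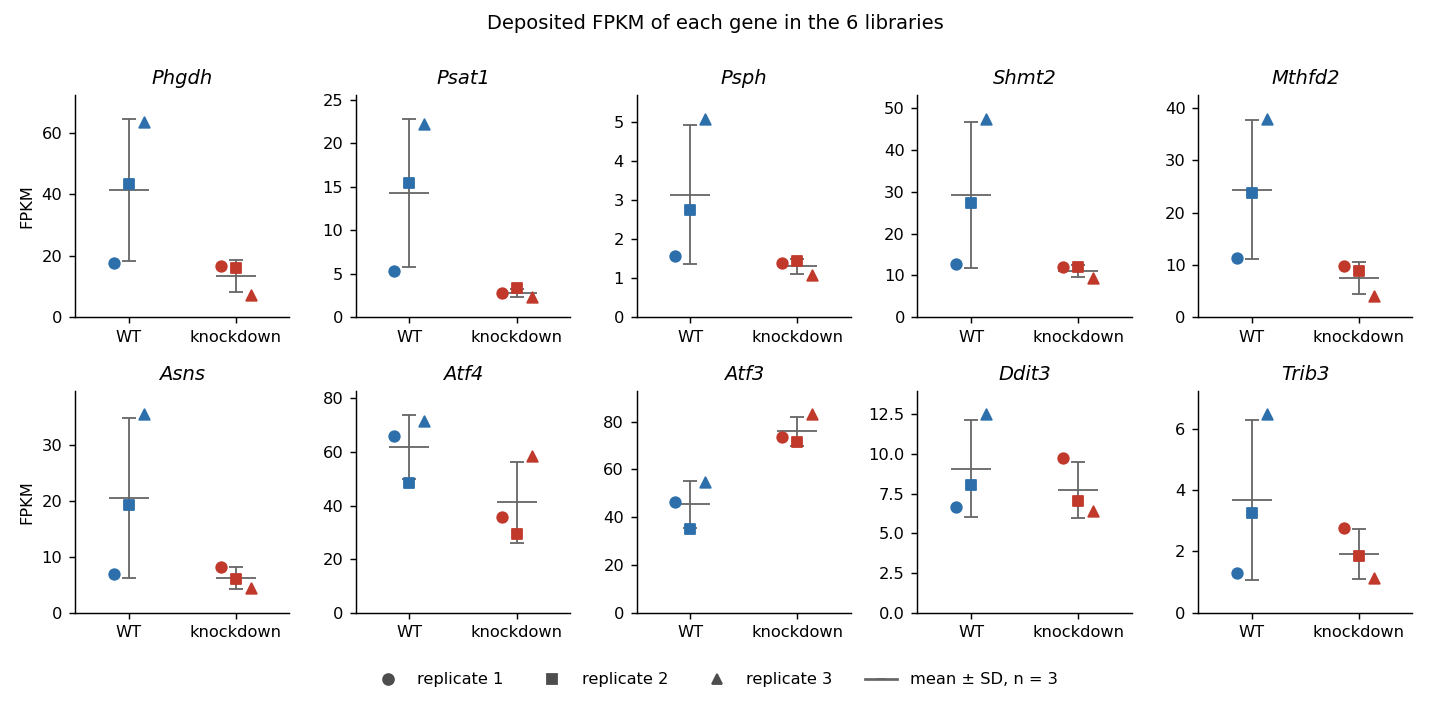
Deposited FPKM of the 10 genes (vertical axes, each from 0) in the WT and knockdown libraries; symbols mark the replicate number and grey bars the mean ± SD of 3 libraries. In the 6 enzymes WT replicate 1 is the lowest WT library and WT replicate 3 the highest, while Atf3 is the only gene whose 3 knockdown libraries all lie above WT.

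The mitochondrial folate enzymes showed the same arrangement of libraries. Shmt2 (ENSMUSG00000025403, chromosome 10, 127517123 to 127522444, minus strand) had 11.9, 12.0 and 9.30 FPKM in the knockdown and 12.7, 27.4 and 47.5 FPKM in WT. Mthfd2 (ENSMUSG00000005667, chromosome 6, 83305691 to 83317606, minus strand) had 9.81, 8.77 and 4.03 FPKM in the knockdown and 11.4, 23.8 and 37.9 FPKM in WT. For both genes the groups did not overlap, with WT replicate 1 nearer to the knockdown than to the other WT libraries. The log2 fold changes were -1.34 (SE 0.42, edgeR adjusted p = 0.0851) for Shmt2 and -1.64 (SE 0.48, edgeR adjusted p = 0.0726) for Mthfd2. Their 95% intervals before adjustment, -2.34 to -0.34 and -2.78 to -0.50, left out 0.

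Asns (ENSMUSG00000029752, chromosome 6, 7675169 to 7693254, minus strand), the asparagine synthetase gene, had 8.18, 6.08 and 4.36 FPKM in the knockdown and 6.96, 19.3 and 35.4 FPKM in WT. It was the only enzyme whose groups overlapped, since knockdown replicate 1 lay above WT replicate 1. The log2 fold change was -1.66 (SE 0.55, edgeR adjusted p = 0.0947). In 5 of the 6 enzymes all knockdown libraries were thus below all WT libraries, as they were in 21.3% of all genes tested. Knockdown replicate 3 was the lowest of the 6 libraries for every enzyme; without it the 6 log2 fold changes were -1.10 to -2.19 and none passed.

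Without WT replicate 1, all 6 enzymes passed the test, when 7.29% of the genes tested were lower. The log2 fold changes were then -1.94 for Phgdh, -2.68 for Psat1, -1.53 for Psph, -1.70 for Shmt2, -1.98 for Mthfd2 and -2.08 for Asns, with edgeR adjusted p from 0.0106 to 0.0328. None of the 6 passed without WT replicate 3, when the log2 fold changes were -0.69 to -1.83 and the adjusted p 0.0685 to 0.239. DESeq2, another count test, called all 6 lower with all libraries (adjusted p from 2.11e-07 for Psat1 to 0.0400 for Asns), when 11.8% of the genes it tested were lower and 9.42% higher. The size of the decrease and whether it passed thus depended on which WT libraries were used and on the tool, while the direction was the same for all 6 enzymes under all 13 alternatives.

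**Figure D2:**
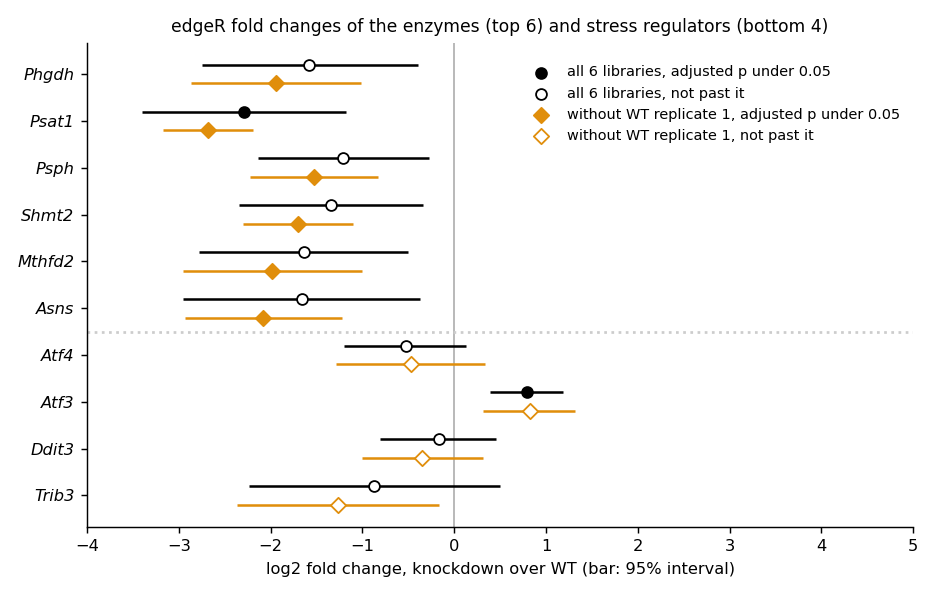
Log2 fold changes (knockdown over WT, horizontal axis) of the 10 genes in edgeR with all libraries (black circles) and without WT replicate 1 (orange diamonds); bars are 95% intervals before adjustment and filled symbols passed an adjusted p of 0.05. Of the enzymes, Psat1 (-2.29) passed with all libraries and all 6 passed without WT replicate 1; of the regulators, Atf3 (0.79) passed with all libraries.

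Among the stress regulators Atf3 went the other way. Atf3 (ENSMUSG00000026628, chromosome 1, 191170296 to 191218039, minus strand), which encodes a bZIP factor that represses many inflammatory genes, had 73.6, 71.5 and 83.0 FPKM in the knockdown and 46.3, 35.2 and 54.9 FPKM in WT. All 3 knockdown libraries lay above all WT libraries, as in 16.3% of all genes tested. The mean rose from 45.5 ± 9.88 to 76.0 ± 6.09 FPKM (SD, n = 3), with a log2 fold change of 0.79 (SE 0.17, edgeR adjusted p = 0.0324). The call held without WT replicate 3 (0.94, adjusted p = 0.0472). It was lost without any one of the other 5 libraries, with adjusted p of 0.0865, 0.0622 and 0.0937 without knockdown replicates 1, 2 and 3 and of 0.0568 and 0.0778 without WT replicates 1 and 2, at log2 fold changes of 0.62 to 0.86.

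Atf4 (ENSMUSG00000042406, chromosome 15, 80255184 to 80257541, plus strand) had 35.9, 29.4 and 58.4 FPKM in the knockdown and 66.0, 48.5 and 71.4 FPKM in WT. The groups overlapped through knockdown replicate 3, which lay above WT replicate 2 and had the least enzyme RNA of all libraries. The log2 fold change was -0.53 (SE 0.28, 95% interval -1.20 to 0.13, edgeR adjusted p = 0.254), and without knockdown replicate 3 it was -0.88 (adjusted p = 0.0750). In WT replicate 1 Atf4 was at 66.0 FPKM while the enzymes were at their lowest WT values, so the libraries did not rank alike for Atf4 RNA and for the enzymes.

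Ddit3 (ENSMUSG00000025408, chromosome 10, 127290774 to 127296288, plus strand), the CHOP gene, had 9.77, 7.06 and 6.44 FPKM in the knockdown and 6.67, 8.07 and 12.5 FPKM in WT. The groups overlapped almost fully, and the log2 fold change was -0.17 (SE 0.27, 95% interval -0.81 to 0.46, edgeR adjusted p = 0.711). Ddit3 overlaps the methionyl-tRNA synthetase gene Mars1 on the opposite strand. Mars1 had 12.8 to 16.3 FPKM in the knockdown and 15.8, 24.1 and 33.7 FPKM in WT. Reads in the bases that this pair shares cannot be told apart either.

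Trib3 (ENSMUSG00000032715, chromosome 2, 152337422 to 152344032, minus strand) had 2.77, 1.85 and 1.14 FPKM in the knockdown and 1.29, 3.26 and 6.46 FPKM in WT. WT replicate 1 lay below 2 of the knockdown libraries, and the log2 fold change was -0.87 (SE 0.58, 95% interval -2.24 to 0.50, edgeR adjusted p = 0.363). Trib3 differed 4.99-fold among the WT libraries, in the range of the enzymes, whereas Atf4 differed 1.47-fold, Atf3 1.56-fold and Ddit3 1.88-fold. By WT mean per length the 10 genes ranked Atf4 (62.0 FPKM), Atf3 (45.5), Phgdh (41.4), Shmt2 (29.2), Mthfd2 (24.4), Asns (20.5), Psat1 (14.3), Ddit3 (9.09), Trib3 (3.67) and Psph (3.14), and neighbours in this order differed by less than the larger of their SDs, except Atf4 and Atf3 (SD 12.0 and 9.88) and Ddit3 and Trib3 (SD 3.06 and 2.61). In the knockdown Atf3 (76.0 ± 6.09 FPKM) stood above Atf4 (41.2 ± 15.2) in every library.

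The enzymes also varied widely among the WT libraries. The measure used here was chosen after the values were seen and is a description. The highest WT library was 4.17 times the lowest for Psat1, 3.64 times for Phgdh, 3.22 times for Psph, 3.75 times for Shmt2, 3.33 times for Mthfd2 and 5.08 times for Asns. A ratio of at least 3 was found in 14.1% of all genes tested, and in 1.73% of the 6608 genes with a mean of at least 5 FPKM, which include all the enzymes but Psph. The median ratio over all genes tested was 1.37. Among the knockdown libraries the enzymes differed less, by 1.29-fold (Shmt2) to 2.43-fold (Mthfd2). The knockdown mean was 0.527 (Psat1) to 0.891 (Asns) of WT replicate 1 alone.

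**Figure D3:**
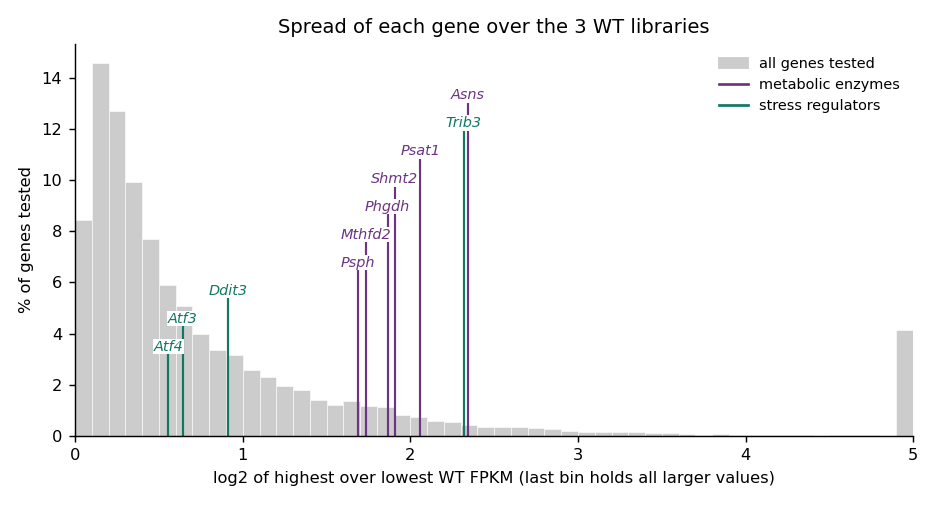
Log2 of the highest over the lowest WT FPKM (horizontal axis) for all 18164 genes tested (grey bars, % of genes on the vertical axis) and for the 10 genes (lines, whose heights only separate the labels). The 6 enzymes and Trib3 lie at ratios of 3.22 to 5.08, and Atf4, Atf3 and Ddit3 at 1.47 to 1.88.

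In all 6 enzymes WT replicate 1 was the lowest and WT replicate 3 the highest of the WT libraries, which was so for 28.3% of all genes tested. The same held for 12 of 12 tested aminoacyl-tRNA synthetase and tRNA export genes known as ATF4 targets, for 28 of 28 cell division genes and for 2 of the 4 regulators (Ddit3 and Trib3). It held for 10 of 21 genes of the unfolded protein response, the endoplasmic reticulum's response to misfolded proteins. That share was also above the share of all genes tested, but the median WT ratio of this list was 1.1, beside 3.7 for the enzymes. Cell division genes were also lower in the knockdown: 23 of 28 fell, beside 1 of the 6 enzymes and 6.46% of all genes tested, and none rose. Their summed FPKM was 136, 201 and 114 in knockdown replicates 1 to 3 and 347, 646 and 845 in WT replicates 1 to 3. The summed enzyme FPKM was 50.8, 47.6 and 28.4 in the knockdown and 55.5, 132 and 212 in WT. Within the knockdown the order thus differed: replicate 2 was the highest for cell division and replicate 1 for the enzymes. In summed FPKM, WT replicate 1 thus stood well above each knockdown library for cell division. For the enzymes it stood only just above the highest knockdown library. All knockdown libraries were below WT replicate 1 in 25 of the 28 cell division genes and in 5 of the 6 enzymes. The exceptions in cell division were Mcm2, Mcm3 and Mcm6, which like Asns overlapped through WT replicate 1. Mcm2 had 2.57 to 4.19 FPKM in the knockdown and 3.01, 8.72 and 12.8 FPKM in WT. The 4 cell division genes with the smallest p did not overlap between the groups. Their log2 fold changes were -2.98 for Ccnb2, -2.32 for Aurkb, -2.99 for Kif20a and -2.44 for Aurka. Ccnb2 had 3.11 to 6.98 FPKM in the knockdown and 24.7, 40.2 and 48.8 FPKM in WT. The median ratio of the knockdown mean to WT replicate 1 was 0.292 over the cell division genes and 0.795 over the enzymes. The part of cell division in the enzyme levels was not tested.

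**Figure D4:**
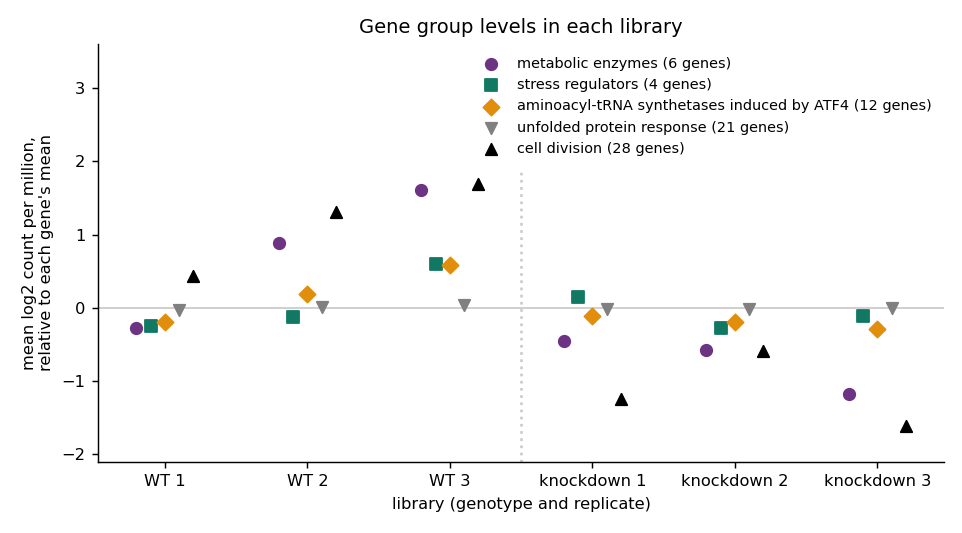
Mean log2 count per M of 5 gene groups in each library (vertical axis, relative to each gene's own mean over the 6 libraries); each point is the average over the genes of a group, with no error bar because genes are not replicates. Enzymes were at -0.28, 0.88 and 1.61 in WT replicates 1 to 3 and at -0.45, -0.58 and -1.17 in knockdown replicates 1 to 3, while genes of the unfolded protein response stayed between -0.03 and 0.04.

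The genes whose libraries were arranged most like those of Psat1, among the 6608 genes with a mean of at least 5 FPKM, were Tfdp1, a partner of E2F factors (Pearson r 0.999 over 6 libraries, log2 counts per M), Mcm7, a subunit of the replicative helicase (0.9987), and Pdia4, a protein disulfide isomerase (0.998). The r of the other enzymes with Psat1 was 0.9433 (Mthfd2) to 0.9667 (Shmt2), with Psph under the level needed. Many other genes followed Psat1 more closely: of the 6608, Shmt2 ranked 224, Asns 395, Phgdh 408 and Mthfd2 420. These are descriptions over 6 libraries that share the group difference. Mcm7 had 4.61 to 5.98 FPKM in the knockdown and 8.16, 17.4 and 23.9 FPKM in WT. Most like Atf3 were Cops7a (0.9988), Rrp7a (0.9915) and the creatine transporter gene Slc6a8 (0.9907). Slc6a8 had 27.3, 30.3 and 31.1 FPKM in the knockdown and 18.1, 13.6 and 21.0 FPKM in WT. Pearson r takes no account of the size of a change. Log2 fold changes were -0.78 for Tfdp1, -1.64 for Mcm7 and -0.25 for Pdia4 (edgeR adjusted p = 0.0981). They were 0.39 for Cops7a, 0.13 for Rrp7a (edgeR adjusted p = 0.255) and 0.80 for Slc6a8.

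Other genes of serine and one-carbon metabolism mostly did not pass. Calls in these further lists depend on the libraries used too. Without WT replicate 2 edgeR called 0 of all genes tested (4065 at an unadjusted p under 0.05, smallest adjusted p 0.0616), and DESeq2 called 2240. A call lost in that edgeR fit, as for Psat1 and Atf3, is therefore not particular to a gene or list. Of 28 tested genes of serine and one-carbon metabolism, 3 fell and 1 rose, and the list's median log2 fold change was 0.00. Tyms, the thymidylate synthase, fell from 1.08, 2.37 and 4.14 FPKM in WT to 0.467 to 0.843 FPKM (-2.02, edgeR adjusted p = 0.0424). Aldh1l2, the mitochondrial formyl-folate dehydrogenase, fell from 0.0844, 0.489 and 0.655 FPKM to 0.0121 to 0.0572 FPKM (-3.69, edgeR adjusted p = 0.0443), a low level throughout. The methionine synthase gene Mtr fell (-0.35) and Mthfs, which recycles formyl-folate, rose (0.57). Of 14 tested genes of serine uptake and use 2 fell and none rose: Serinc3, a membrane protein gene, with 142 to 157 FPKM in the knockdown and 242 to 264 FPKM in WT (-0.70), and the neutral amino acid transporter gene Slc38a2 (-0.65). The 16 listed genes, of glycolysis and Pck2, covered steps before and after the branch to serine synthesis. Of these 1 fell, the phosphofructokinase gene Pfkp (-0.59), and none rose.

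Few other known ATF4 targets passed. Of 17 tested enzyme and transporter genes 1 rose, the aspartate transaminase gene Got1 (0.44), and none fell. Of all genes tested, 4.87% were higher and 6.46% lower. The log2 fold change was below 0 for 13 of the 17 and above 0 for 4, with a median of -0.61. Of these 17, 5 had a WT ratio of at least 3, as had 14.1% of all genes tested. Named here after their values were seen, they were the amino acid transporter genes Slc7a5 and Slc7a1, the glutathione-degrading enzyme gene Chac1, Cth and Pycr1. Cth (0.0151 to 0.281 FPKM) and Pycr1 (0.0424 to 0.426 FPKM) were low in all libraries, and for Cth WT replicate 2 was the highest. Slc7a5 had 2.24, 2.06 and 0.995 FPKM in the knockdown and 1.78, 5.59 and 13.0 FPKM in WT, and Chac1 0.971, 0.377 and 0.353 FPKM against 0.543, 1.81 and 4.98 FPKM. Like Asns, both overlapped between the groups through WT replicate 1 and did not pass (edgeR adjusted p = 0.117 and 0.147). By contrast Slc7a11, the cystine transporter gene, had 13.6, 19.3 and 18.1 FPKM in the knockdown and 17.6, 13.8 and 12.6 FPKM in WT, with WT replicate 1 highest among WT (edgeR adjusted p = 0.371).

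Of 21 tested ATF4 target genes of the stress response 1 rose and 2 fell, with 11 log2 fold changes below 0 and 10 above. Gadd45a, a growth arrest gene, rose from 7.97, 7.00 and 6.19 FPKM in WT to 17.1, 15.6 and 20.9 FPKM (log2 fold change 1.39, SE 0.17, edgeR adjusted p = 0.0113). The stress-induced chromatin factor gene Nupr1 fell (-1.14) and so did Arhgef2 (-0.45). Of the 12 tested tRNA synthetase and export genes 1 fell, the tRNA exporter gene Xpot (-0.41, edgeR adjusted p = 0.0497), and none rose. The log2 fold change was below 0 for 11 of the 12 (median -0.44). Without WT replicate 1, 8 of the 12 fell, beside 7.29% of all genes tested. The alanyl-tRNA synthetase gene Aars had 10.1 to 13.2 FPKM in the knockdown and 11.7, 19.6 and 27.0 FPKM in WT. WT replicate 1 lay below 2 of the knockdown libraries, so the groups overlapped.

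Upstream of ATF4, 2 of 16 tested genes of the eIF2 kinases, eIF2, its exchange factor and their regulators rose and none fell. Eif2ak4, which encodes GCN2, the kinase that senses uncharged tRNA, had 9.16, 8.24 and 10.2 FPKM in the knockdown and 6.31, 6.18 and 5.73 FPKM in WT (log2 fold change 0.65, SE 0.11, edgeR adjusted p = 0.0198). Impact, which encodes an inhibitor of GCN2 activation, rose as well, with 13.6 to 18.3 FPKM in the knockdown and 10.1 to 11.1 FPKM in WT (0.64, edgeR adjusted p = 0.0226). For both genes the WT libraries lay close together, unlike those of the enzymes. Of 21 genes of the unfolded protein response 2 rose, the chaperone gene Calr (0.34) and Dnajb9 (0.44), none fell, and the median was -0.01.

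Factors that can pair with ATF3, ATF4 or CHOP, and the immediate early genes with which Atf3 is often induced, did not rise with it. Of 24 bZIP genes 6 fell and none rose. Fos fell from 143, 152 and 197 FPKM in WT to 65.1, 38.8 and 18.2 FPKM (log2 fold change -1.95, SE 0.43, edgeR adjusted p = 0.0346), and Junb (-0.77), Cebpd (-1.21) and Fosb (-4.67) were among the others that fell. Fosl1 also passed, at 0.0530 to 0.145 FPKM in WT and listed at 0.0001 FPKM, which stands for a count of 0, in each knockdown library. Of 15 immediate early genes 9 fell and none rose (median -1.08), with Dusp1 at -1.90, Zfp36 at -1.63, Klf4 at -1.01 and Btg2 at -1.32.

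Markers of other blood cells differed in level. The neutrophil gene S100a9 had 41.1 to 75.2 FPKM in the knockdown and 68.8, 92.4 and 57.4 FPKM in WT, and its groups overlapped. Prg2 and Prss34 rose, 2 of 7 genes of mast cells, basophils and eosinophils, with a summed FPKM of 6.32 to 14.8 in the knockdown and 2.03 to 4.15 in WT. Of 7 progenitor genes 1 rose (Kit), with a summed FPKM of 12.7 to 21.1 and 6.12 to 8.96. Of 9 neutrophil genes Mpo rose and Ltf fell, with a summed FPKM of 78.9 to 127 and 102 to 154, and of 3 tested erythroid genes Hba-a1 rose, with a summed FPKM of 1.33 to 9.51 and 0.314 to 0.731 for the 5 listed genes. None of the tested T and NK cell, B cell, dendritic cell or fibroblast genes passed. The part of these cells in the levels of the 10 genes was not tested.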

How the data were processed

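The authors deposited 1 table with a column of estimated counts and a column of FPKM for each library, per the file headers. Reads were trimmed with cutadapt 1.9 (minimum length 100 bases), per the headers of the trimming logs, and the submitters' processing notes name GRCm38 (mm10). Which aligner and counter were used is not given in the sources used here. Summed over genes, the whole-number counts came to 2.95 to 3.01 per read pair kept, so they are estimates and were not rounded; no binomial interval was made from them. Groups follow the genotype label, and p-values measure the spread between libraries, which may be technical.

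Genes kept by filterByExpr (minimum count 10) were tested with edgeR 4.0.16 (R 4.3.3): TMM scaling, quasi-likelihood fit on group, Benjamini-Hochberg adjustment over 18164 genes, threshold 0.05. The SE is the log2 fold change divided by the root of F. On counts simulated for this comparison, the test found 6 of 67 genes with a 1.5-fold change, 18 of 67 with a 2-fold and 52 of 66 with a 3-fold change, and made 2 false calls among 17483 genes. Only these genes were changed, far fewer than the 2058 called in the data, so the rates need not hold for the data. DESeq2 1.42.0 and limma 3.58.1 served as alternatives.

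The members and the gene lists were chosen with earlier results of these data known. Named from each list were the genes that passed (over 6, the 4 with the smallest p); Mars of the tRNA synthetase list and Gcn1l1 of the eIF2 list matched no row by those symbols. Mars1, Cct6a, Lyz2, Aars, S100a9, Slc7a11, Mcm2, Mcm3, Mcm6, the 5 genes with a wide WT ratio, Nfe2l1 and Soat2 were named after their values were seen. A gene of the bZIP list that passed is not reported here.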

Additional observations from a re-analysis of the deposited data

How the results depend on the processing

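The number of genes called was 2058 with edgeR, 3641 with DESeq2, 1205 without a filter on low counts and 789 with limma on log2(FPKM + 1) without a filter. Leaving out single libraries gave 0 (without WT replicate 2) to 2334 genes. Without WT replicate 2, edgeR had 4065 genes at an unadjusted p under 0.05, and DESeq2, run on those libraries after the 0 was seen, called 2240. Of the 10 members 1 was lower with all libraries, 6 with DESeq2, 0 without a filter on low counts, 0 with limma without a filter, and 0 to 6 with single libraries left out. The 1 member called higher, Atf3, was also called with DESeq2, and 0 members were higher without a filter on low counts or with limma without a filter, and 0 to 1 with single libraries left out. The adjusted p of Psat1 ranged from 2.11e-07 to 0.108 and it passed under 5 of 13 alternatives; that of Atf3 ranged from 0.000679 to 0.0937 and it passed under 6 of 13. Phgdh, Psph, Shmt2, Mthfd2 and Asns each passed under 2 of 13, DESeq2 and the fit without WT replicate 1, and Atf4, Ddit3 and Trib3 under 0 of 13. With the replicate number as a block, 728 genes were called, among them 0 members lower and 1 higher (Atf3, adjusted p = 0.0420; Psat1 had 0.0761). The labels do not tell if same-numbered libraries are paired. The correlation of their deviations from the group means was 0.0458, 0.0361 and -0.0108. For differently numbered libraries it was -0.0692 to 0.0341, and these values cannot settle whether the numbers pair the libraries. The 3 libraries per group limit what could be detected.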

Other observations

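Nfe2l1, which encodes the bZIP factor NRF1 that controls proteasome genes, was at 43.2 FPKM in WT replicate 2 and at 7.50 to 10.3 FPKM in the other 5 libraries (log2 fold change -1.24, edgeR adjusted p = 0.208). Soat2, a cholesterol esterification gene, had the largest WT ratio of the ATF4 stress list, with 0.139, 0.770 and 1.51 FPKM in WT replicates 1 to 3 and 0.353, 0.410 and 0.0904 FPKM in the knockdown (edgeR adjusted p = 0.311).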
